A study of Mus musculus with 2 samples.

Results

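The clustered histone genes encode the histones H1, H2A, H2B, H3 and H4 that package newly copied DNA. They were taken as all gene symbols that begin with Hist1h, Hist2h, Hist3h or Hist4h, which gave 67 of the 22072 symbols in the deposited tables. The 67 genes comprised 6 of H1, 18 of H2A, 18 of H2B, 12 of H3 and 13 of H4. They were read in RNA from mouse embryonic tongue at embryonic day 12, on a mixed background, with 1 library for each of 2 genotypes. The control library was Osr1f/+, that is, 1 conditional and 1 wild-type allele of Osr1. The mutant library was Osr1f/-; Wnt1cre, that is, the conditional allele over a null allele, with Cre recombinase driven by Wnt1 sequences. Osr1 encodes a zinc finger transcription factor. Wnt1cre acts in the neural crest lineage, so other cells of the mutant tongue keep the conditional allele. Both genotypes carried the conditional allele, and the control had no Cre. The design text says that 3 pairs of control and mutant were pooled for RNA extraction. It is read here as 1 pool for each genotype, which the text does not spell out. No replicate library shows the variation between embryos. No test between genotypes was therefore made. In bulk tissue, fewer cells of a type and less RNA per cell cannot be told apart.

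Most clustered histone genes have no introns. They lie together in a few tight groups and are transcribed mainly in S phase, when DNA is copied. Their mRNAs usually end in a short stem-loop that is bound by the protein Slbp, in place of a poly(A) tail, and are degraded when DNA synthesis stops. Some of the same genes are known to give longer, polyadenylated transcripts as well. Variant histones such as those of H3f3a, H3f3b and H2afz come from single genes with polyadenylated mRNAs and are made throughout the cell cycle. Several clustered genes encode the same protein, and H2A and H2B genes often stand head to head around a shared promoter.

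The stem-loop is the feature that sets these mRNAs apart, so those of 8 members described below are printed first. All 67 members had a reference transcript of the GENCODE mouse annotation, release M21, 66 by their RefSeq accession and 1, Hist3h2bb-ps, by its symbol. The letters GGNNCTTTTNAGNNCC, on the transcript strand, were found in 43 of the 67 transcripts: 4 of H1, 11 of H2A, 9 of H2B, 8 of H3 and 11 of H4. The commonest form, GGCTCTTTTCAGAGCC, stood in 25 transcripts, followed by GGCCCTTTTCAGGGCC in 7 and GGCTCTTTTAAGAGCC in 6. Each line below gives, 5′ to 3′, the 16 letters in capitals with the bases on either side.
Hist1h1c: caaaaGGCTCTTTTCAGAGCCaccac
Hist3h2a: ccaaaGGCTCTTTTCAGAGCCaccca
Hist3h2ba: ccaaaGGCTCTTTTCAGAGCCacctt
Hist1h2bj: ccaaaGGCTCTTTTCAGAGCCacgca
Hist1h3c: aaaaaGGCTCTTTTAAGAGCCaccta
Hist1h4i: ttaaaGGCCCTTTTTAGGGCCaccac
Hist1h4d: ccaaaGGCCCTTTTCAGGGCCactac
Hist1h4b: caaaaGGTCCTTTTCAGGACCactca
Hist1h1c, Hist3h2a, Hist3h2ba and Hist1h2bj share the commonest form, while the H4 examples carry 3 different forms. In 22 transcripts the GENCODE model ran more than 100 bases past these letters. It ran 1643 bases past them in Hist3h2a, 840 in Hist1h1c, 330 in Hist1h4i and 169 in Hist3h2ba. The polyadenylation letters AATAAA lay in the last 50 bases of 13 transcripts, among them Hist1h1c, Hist2h2be, Hist3h2a and Hist3h2ba. A transcript without the stem-loop letters says only that the GENCODE model does not hold them.

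The models used for the counting differed in how far they reach past the coding sequence. The deposited values rest on RefSeq models of the authors' annotation, which can be shorter than the GENCODE transcripts used for the letters above. The coding sequence was taken as the longest stretch from ATG to a stop codon in the GENCODE transcript. In 35 of the 67 genes the deposited model had the length of the coding sequence alone, and for 20 of these 35 the GENCODE transcript went on to hold the stem-loop. In 8 it held fewer than 100 further bases, and in 24 it held 100 or more. These 24 extended models took 69.5% of the estimated histone reads in the control library and 71.5% in the mutant library. The 35 models of coding sequence alone took 23.6% and 21.2%.

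Near-identical copies were the other limit. By the coding sequences taken here, all 13 H4 genes encode the same protein. The 12 H3 genes gave 3 proteins, the 18 H2A genes 9, the 18 H2B genes 13 and the 6 H1 genes 6. These counts include the pseudogene Hist3h2bb-ps. Hist2h3c1 and Hist2h3c2-ps counted as a separate H3 protein, with 546 bases where the other H3 genes had 411. Hist1h2bp and Hist1h2bq had 417 and 405 bases, where most H2B genes had 381. Of all 50-base stretches in a coding sequence, the median share also found in another member was 84.7% for H3, 83.3% for H2A, 72.2% for H2B, 70.3% for H4 and 10.9% for H1. How reads that match several copies were counted is not given in the sources used here, so the levels of such copies are uncertain. The first 90 coding bases of 6 H2A genes show what this means, with capitals where a base differs from Hist1h2ad.
Hist1h2ad: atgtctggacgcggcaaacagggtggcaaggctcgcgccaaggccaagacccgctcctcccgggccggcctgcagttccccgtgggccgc
Hist1h2ag: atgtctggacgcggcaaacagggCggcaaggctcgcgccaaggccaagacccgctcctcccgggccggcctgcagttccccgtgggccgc
Hist1h2ai: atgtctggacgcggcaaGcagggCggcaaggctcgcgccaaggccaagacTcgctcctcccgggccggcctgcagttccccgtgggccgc
Hist1h2ab: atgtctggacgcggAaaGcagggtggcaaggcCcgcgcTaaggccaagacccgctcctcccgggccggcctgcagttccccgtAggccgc
Hist1h2ak: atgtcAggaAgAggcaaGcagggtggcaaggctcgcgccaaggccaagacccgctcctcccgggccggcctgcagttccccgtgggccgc
Hist3h2a: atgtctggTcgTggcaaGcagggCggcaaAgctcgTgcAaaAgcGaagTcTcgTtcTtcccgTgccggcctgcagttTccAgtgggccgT
Over the whole coding sequence of 393 bases, Hist1h2ag was 99.5% identical to Hist1h2ad, Hist1h2ai 98.7%, Hist1h2ab 98.2% and Hist1h2ak 97.2%. Hist3h2a differed at 45 bases. Only 12.2% of its 50-base stretches occurred in another member, compared with 100% for Hist1h2ad and Hist1h2ag. The share was 37.7% for Hist3h2ba, 21.9% for Hist1h1c and 0% for Hist2h2be, but 97.6% for Hist1h2bc.

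The total behind the FPKM scale was estimated at 18900000 mapped reads for the control and 23100000 for the mutant library. FPKM is a fragment number corrected for transcript length and library depth. For a transcript of 400 nt, 1 FPKM corresponded to 7.56 reads in control and 9.25 in mutant tongue, and the floor of 3 reads to 0.397 and 0.324 FPKM. Intervals given below are exact 95% intervals of the mutant to control ratio from estimated reads, and they and the floors cover counting error only. Osr1 stood at 56.8 FPKM in control and 18.4 in mutant tongue, a ratio of 0.325 (interval 0.30 to 0.352), in the direction of the labels. The muscle regulators Myf5, Myod1, Myog and Lbx1 stood between 6.37 and 80.8 FPKM in control and between 5.08 and 84.9 in mutant tongue, and the mesenchyme genes Prrx1, Pdgfra and Scx between 23.8 and 75.3 and between 30.4 and 80.3.

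Histone genes were read at low levels in both libraries. Of the 63 members whose rows all had the status OK, 35 reached 1 FPKM in control and 29 in mutant tongue. Their median was 1.15 FPKM in control and 0.962 in mutant tongue. The genes counted as measured were those whose rows were all OK and that reached 1 FPKM in the control library, the mutant library or both. These were 38 histone genes, and 12383 genes in all. Of the 38, 9 reached 1 FPKM only in control and 3 only in mutant tongue, so these 12 had to differ to some degree to be counted. The median level of the 38 was 1.56 and 1.66 FPKM, compared with 9.91 and 9.99 FPKM for all measured genes. The most abundant member, Hist3h2ba, was exceeded by 4964 measured genes in the control library and by 4017 in the mutant library. The other 25 members with OK rows lay below 1 FPKM in both libraries, between 0 and 0.954 FPKM in control and between 0 and 0.962 in mutant tongue. Hist1h2ap, Hist1h4n, Hist2h2aa2 and Hist2h3c1 had rows flagged as low in data and were left out of the sums.

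**Figure D1:**
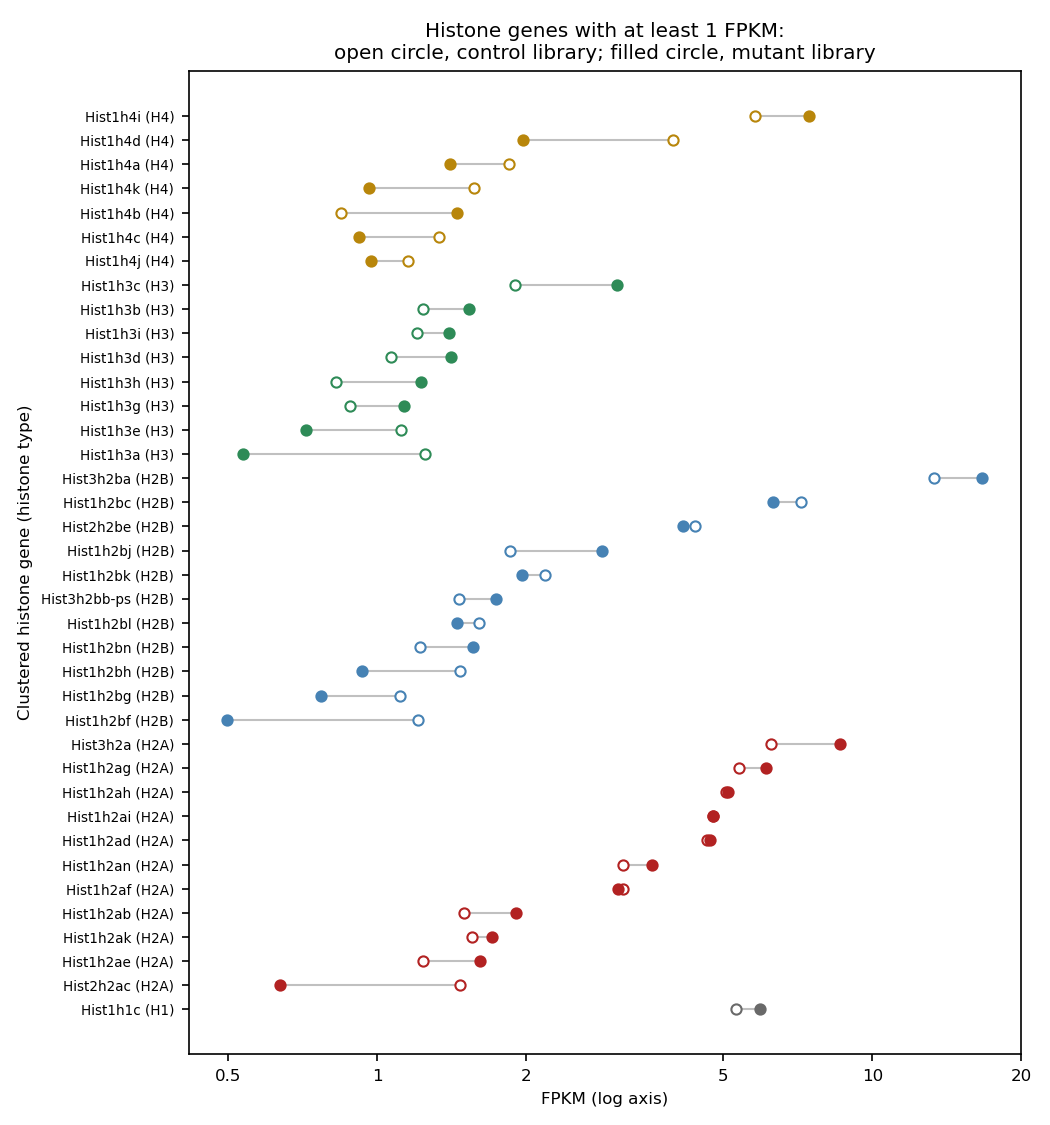
Level of each of the 38 measured histone genes in FPKM (log axis), ordered by histone type and mean level, with the control library as open and the mutant library as filled circles. Hist3h2ba lies highest, at 13.3 and 16.7 FPKM, and most other genes lie between 1 and 7 FPKM, with 1 library each and no error bars.

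Among the linker histones, Hist1h1c was the 1 gene of 6 that was measured. H1 binds the DNA between nucleosomes and compacts chromatin. Hist1h1c stood at 5.32 FPKM in control and 5.92 in mutant tongue, from 157 and 214 estimated reads (ratio 1.11, interval 0.902 to 1.38). The other H1 genes had 16 estimated reads or fewer in each library. Hist1h1a stood at 0.496 and 0.099 FPKM, Hist1h1b at 0.293 and 0.116, Hist1h1d at 0.160 and 0.234, and Hist1h1e at 0.268 and 0.124. Hist1h1c thus held most of the H1 sum, 6.58 FPKM in control and 6.5 in mutant tongue. Testis H1, Hist1h1t, stood at 0.048 and 0 FPKM.

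H2A, which pairs with H2B in the nucleosome, had 11 measured genes. Hist3h2a, on chromosome 11 (mm9 58768187 to 58770176), was the most abundant, at 6.25 FPKM in control and 8.61 in mutant tongue. It rested on 235 and 397 reads, the largest number of any member, and its ratio of 1.38 had an interval of 1.17 to 1.63. Hist1h2ag (chromosome 13, 22134346 to 22134818) stood at 5.39 and 6.10 FPKM from 48 and 67 reads, a ratio of 1.13 (0.775 to 1.69). Hist1h2ah stood at 5.06 and 5.11 FPKM, with an interval of 0.644 to 1.61. Hist1h2ai stood at 4.76 FPKM in both libraries, and Hist1h2ad at 4.63 and 4.69. The last 3 had ratios near 1 with wide intervals, and near-identical copies limit what each value shows. Hist1h2an stood at 3.14 and 3.58 FPKM and Hist1h2af at 3.14 and 3.07. Hist2h2ac went the other way, at 1.47 FPKM in control and 0.636 in mutant tongue, from only 11 and 6 reads (ratio 0.434, interval 0.135 to 1.31). In all, 9 of the 11 were higher and 2 lower in the mutant library. Hist1h2ah, Hist1h2ai and Hist1h2ad, with ratios near 1, are among the 9. For all measured genes the shares were 51.2% and 48.8%, and for those with models of 300 to 700 nt 56.9% and 43.1%.

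H2B had 11 measured genes, led by Hist3h2ba. It lies on chromosome 11 (58762413 to 58763032) and stood at 13.3 FPKM in control and 16.7 in mutant tongue. From 156 and 239 reads its ratio was 1.25, with an interval of 1.02 to 1.54. Hist1h2bc (chromosome 13, 23776068 to 23784349) stood at 7.19 and 6.29 FPKM, from 99 and 106 reads, with a ratio of 0.876 (0.658 to 1.16). Its deposited model is spliced, with 728 nt of transcript over a span of 8282 nt. It is 1 of 4 members, all of H2B, with such a row, and the other 3, Hist1h2be, Hist1h2bp and Hist1h2bq, were below 1 FPKM. Hist2h2be (chromosome 3, 96025044 to 96027661) stood at 4.39 and 4.15 FPKM. With 217 and 251 reads it was among the best-read members, and its ratio of 0.946 had an interval of 0.784 to 1.14. Hist1h2bj stood at 1.85 and 2.84 FPKM, from 13 and 25 reads (interval 0.773 to 3.34), and Hist1h2bf at 1.21 and 0.496 FPKM, from 9 and 4 reads (0.0817 to 1.30). In all, 4 of the 11 were higher and 7 lower, against 51.2% and 48.8% of all measured genes.

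H3 and H4, which form the core of the nucleosome together, summed to less FPKM than H2A and H2B. No H3 gene reached 5 FPKM. Hist1h3c had the highest level, 1.90 FPKM in control and 3.04 in mutant tongue, from 17 and 34 reads (ratio 1.60, interval 0.887 to 3.12). Hist1h3a stood at 1.25 and 0.534 FPKM, from 13 and 7 reads (0.149 to 1.19). Of the 8 measured H3 genes, 6 were higher and 2 lower in the mutant library. Among the H4 genes Hist1h4i (chromosome 13, 22132685 to 22133221) led, at 5.80 and 7.44 FPKM from 59 and 92 reads, a ratio of 1.28 (0.908 to 1.80). Hist1h4d had the largest log2 difference of FPKM plus 1 of any measured member, though Hist1h2bf, Hist1h3a and Hist2h2ac had lower plain ratios. It stood at 3.95 FPKM in control and 1.97 in mutant tongue. It rested on 23 and 14 reads, and its interval of 0.236 to 1.01 reached just past 1. Hist1h4b stood at 0.845 and 1.45 FPKM and Hist1h4a at 1.84 and 1.4. Of the 7 measured H4 genes, 2 were higher and 5 lower. For both types, the shares among all measured genes were 51.2% higher and 48.8% lower.

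Over all types, 22 of the 38 measured members were higher and 16 lower in the mutant library, compared with 51.2% higher and 48.8% lower among all measured genes. Among the 371 measured genes with models of 300 to 700 nt, which are as short as most histone models, 56.9% were higher and 43.1% lower. These 371 are defined by length alone, so measured histone genes of that length count among them. The shares given for short models are thus not separate from the members. The median log2 ratio of FPKM plus 1 was 0.05 for the members and 0.0035 for all measured genes. At 1.2-fold or more on this scale, 7 members were higher and 8 lower. Of the 8 lower members 7 were below 1 FPKM in mutant tongue and so were counted only through their control value, and 2 of the 7 higher members were counted only through their mutant value. With a mean of both libraries of at least 1 FPKM, 22 of 34 members were higher and 12 lower, and 7 and 5 passed 1.2-fold. The background, with the filter of 1 FPKM in either library and not the mean filter, was 4.77% and 3.46% of all measured genes. In the short models it was 9.16% and 7.82%. At 1.5-fold or more on the same scale, 0 members were higher and 2 lower, Hist1h4d and Hist2h2ac. The background was 0.896% and 0.581% (1.08% and 2.16% in the short models). Adding 1 shrinks the ratios of low genes most, so the ratios of all measured genes, at higher levels, were shrunk less. Plain ratios passed 1.5-fold in further members on both sides. Examples are Hist1h4b (1.71) and Hist1h3c (1.60), and on the lower side Hist1h2bf (0.411) and Hist1h3a (0.429). Depth was low behind these counts. The 38 members had a median of 29 estimated reads over both libraries, compared with 1180 for all measured genes. Fewer than 60 reads were behind 28 of the 38 members and behind 12 of the 15 past 1.2-fold. The interval lay above 1 in 2 members, Hist3h2a and Hist3h2ba, and below 1 in 0, against 10.7% and 10.2% of all measured genes (9.16% and 4.85% in the short models). It included 1 in the other 36.

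**Figure D2:**
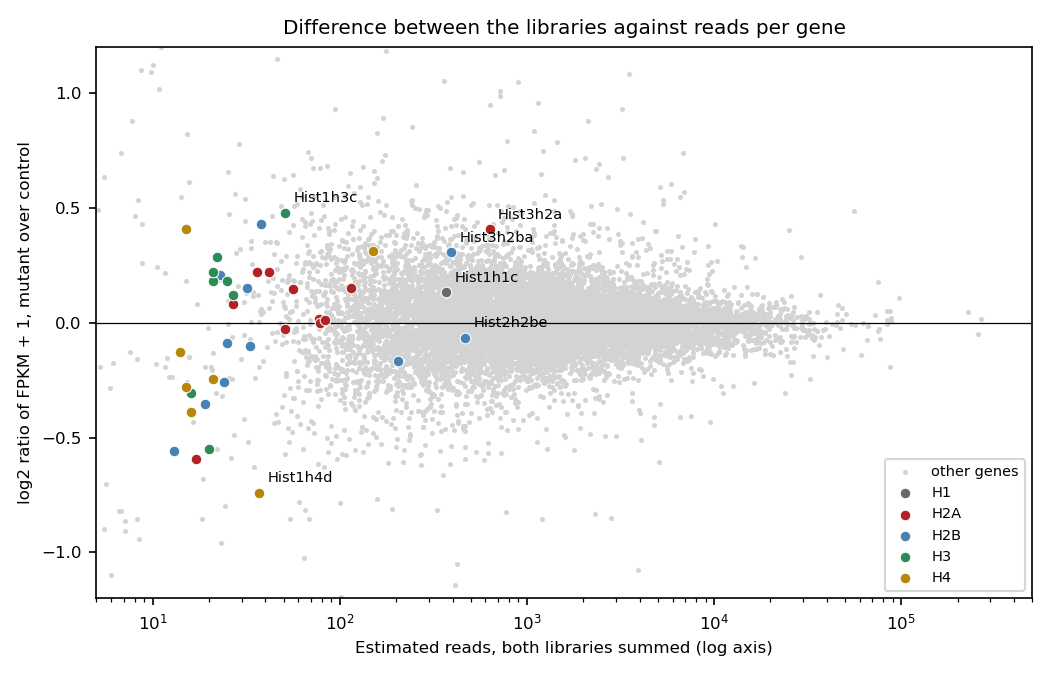
log2 ratio of FPKM plus 1 (mutant over control) against estimated reads of both libraries (log axis), with the 38 measured histone genes coloured by type and other measured genes in grey, 82 of which lie outside the axes. The histone genes spread widely at few reads, from −0.74 in Hist1h4d to 0.48 in Hist1h3c, and Hist3h2a and Hist3h2ba lie above 0 with more reads.

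Summed by type, the ratio of histone FPKM, mutant over control library, lay between 0.882 for H4 and 1.17 for H3. The interval of the ratio of reads lay above 1 for H2A and for all types together. The 63 members with OK rows summed to 115 FPKM in control and 120 FPKM in mutant tongue, a ratio of 1.04. By estimated reads, which weigh long models more, they had 1563 and 2059, a ratio of 1.08 (interval 1.01 to 1.15) after scaling to depth. H2A summed to 38.6 and 42.5 FPKM, a ratio of 1.10, and by reads 1.2 (1.07 to 1.35). H2B summed to 40.9 and 42.2 FPKM (ratio 1.03) and by reads its ratio was 1.0 (0.901 to 1.11). H3 summed to 10.5 and 12.3 FPKM (1.17), with a ratio of reads of 1.14 (0.869 to 1.49). H4 summed to 18.6 and 16.4 FPKM (0.882), with a ratio of reads of 0.942 (0.744 to 1.19).

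The higher total rested on 1 small locus. The 3 Hist3 genes on chromosome 11 together had 21 FPKM in control and 27.0 in mutant tongue, a ratio of 1.29, from 404 and 655 reads (ratio 1.32, interval 1.17 to 1.5). The third gene, the pseudogene Hist3h2bb-ps, stood at 1.46 and 1.73 FPKM. Without these 3 genes, the other members summed to 94.1 and 92.9 FPKM, a ratio of 0.986, and the ratio of reads was 0.990 (0.915 to 1.07). The H2A ratio of reads was then 1.05 (0.897 to 1.24). H2B then summed to 26.1 and 23.8 FPKM, a ratio of 0.910, with a ratio of reads of 0.913 (0.804 to 1.04). The Hist3 genes were set apart after their values were seen, and whether their difference would recur in another pool was not tested.

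**Figure D3:**
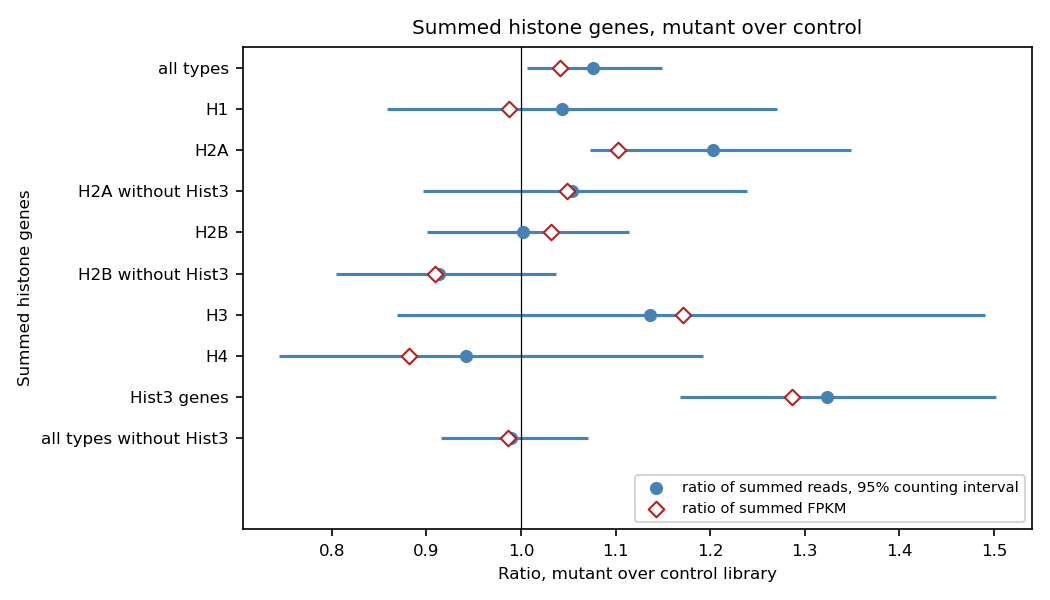
Ratio of summed histone genes, mutant over control library, as summed FPKM (open diamonds) and as summed estimated reads (filled circles, with the 95% counting interval). The Hist3 genes lie at 1.29 and 1.32, and all types without them lie at 0.986 and 0.990.

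Along the clusters the other blocks showed no common direction. Among all measured genes 51.2% were higher and 48.8% lower. In the first Hist1 block on chromosome 13 (21807632 to 22135479, 22 genes), 10 measured genes were higher and 4 lower, and the sum went from 40.4 FPKM in the control to 43.5 in the mutant library. In the second Hist1 block (23622913 to 24026720, 31 genes), 9 were higher and 10 lower, with sums of 46.9 and 42.9 FPKM. The Hist2 block on chromosome 3 (96023839 to 96074115, 10 genes) had 2 measured genes, both lower, with sums of 6.90 and 6.35 FPKM. Hist4h4 on chromosome 6 was listed at 0 in control and at 0.148 FPKM in mutant tongue.

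**Figure D4:**
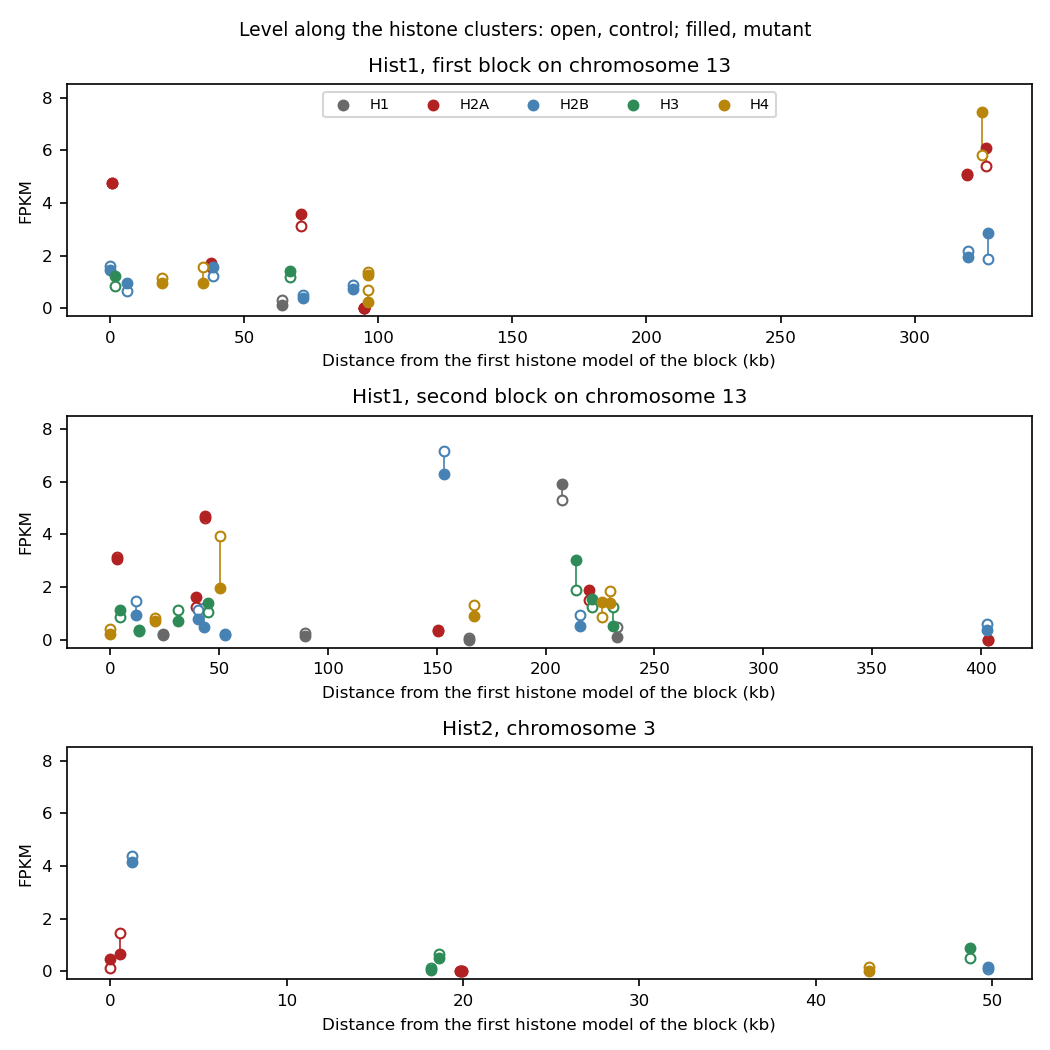
FPKM of each histone gene against its distance (kb) from the first histone model of its block, with the control library as open and the mutant library as filled circles, coloured by type. In the first block Hist1h4i is highest at 7.44 FPKM in the mutant library, and in the second Hist1h2bc is highest at 7.19 FPKM in the control library.

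The 8 members with several deposited rows, among them the neighbours Hist1h2ao, Hist1h2ap and Hist1h2bq, were not paired. Among the others, H2A and H2B genes less than 1000 nt apart formed 12 pairs, and in 8 of them both genes were measured. The H2A gene had the higher FPKM in both libraries in 8 of the 12 pairs and in 7 of the 8 measured pairs. Among these 7 is Hist3h2a with the pseudogene Hist3h2bb-ps. Hist1h2ag, for example, stood at 5.39 and 6.10 FPKM and its neighbour Hist1h2bj, 280 nt away, at 1.85 and 2.84. Hist1h2ad stood at 4.63 and 4.69 FPKM and its neighbour Hist1h2bf at 1.21 and 0.496. The order was the opposite in the other 4 pairs. These were Hist1h2ac with Hist1h2bc, Hist1h2aa with Hist1h2ba, and Hist2h2ab and Hist2h2ac, both with Hist2h2be. Hist2h2be is thus counted more than once, and Hist2h2ac lies between it and Hist2h2ab. Of the 8 measured pairs, 4 had both genes on the same side of the control value. The order within a pair also depends on how shared reads were counted, which was not tested.

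The promoters hold letters known from histone genes. In RefSeq promoter windows of GRCm38.p6, from 250 bases before to 50 after the gene start, 61 of the 67 members had a sequence. The octamer ATTTGCAT, or ATGCAAAT on the other strand, the site of Pou2f1, stood in 7 of 18 H2A and 7 of 15 H2B windows, in 0 of those of the other types, and in 1.74% of all 32851 windows. CCAAT or ATTGG stood in all 6 H1, 18 H2A, 15 H2B and 10 H3 windows and in 3 of 12 H4 windows (37.4% of all windows). GGTCCG or CGGACC stood in 11 of 12 H4 windows (8.25% of all windows). The letters AAACACA or TGTGTTT stood in 5 of 6 H1 windows (7.18% of all), and TATAAA or TTTATA in 35 of the 61 (13.6%). A match is a description of letters only, and windows of head-to-head neighbours overlap. The promoters of the 2 members whose intervals lay above 1 are printed as the 250 bases before the start, on the plus strand of GRCm38.p6. Hist3h2a is at chr11:58954435-58954684 and Hist3h2ba at chr11:58948661-58948910, and capitals mark the octamer and CCAAT on either strand.
Hist3h2a: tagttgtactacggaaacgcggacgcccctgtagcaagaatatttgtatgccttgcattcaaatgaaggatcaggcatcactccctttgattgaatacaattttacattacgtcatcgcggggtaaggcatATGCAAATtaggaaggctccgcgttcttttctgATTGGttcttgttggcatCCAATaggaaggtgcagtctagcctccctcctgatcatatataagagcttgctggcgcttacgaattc
Hist3h2ba: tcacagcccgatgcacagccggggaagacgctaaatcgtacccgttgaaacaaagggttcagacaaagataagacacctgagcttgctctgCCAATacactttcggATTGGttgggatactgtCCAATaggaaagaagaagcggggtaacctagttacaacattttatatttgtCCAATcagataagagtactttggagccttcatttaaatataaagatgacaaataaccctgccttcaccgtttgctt
Hist3h2a holds 1 octamer and 2 CCAAT letters, and Hist3h2ba 0 octamers and 4 CCAAT letters.

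The deposited levels of the variant histones were far higher than those of the clustered genes of the same type. The 3 measured H3 variants, H3f3a, H3f3b and Cenpa, summed to 1183 FPKM in control and 1221 in mutant tongue, which is 113 and 99.5 times the clustered H3 sum. The 6 H2A variants summed to 816 and 751 FPKM, 21.1 and 17.6 times the clustered H2A sum. H1f0 and H1fx summed to 191 and 206 FPKM, 29.1 and 31.7 times the clustered H1 sum. How far the library kit reads mRNA without a poly(A) tail was not tested. How reads shared between near-identical clustered copies were counted is not known either. Hist1h2ao and Hist2h2aa1, whose coding sequences are fully shared, entered the H2A sum at 0, and members with rows flagged as low in data were left out. These ratios thus compare deposited values and not amounts of RNA or protein. H3f3b, which encodes replication-independent H3.3, stood at 419 and 456 FPKM (interval of the ratio 1.07 to 1.11), and H3f3a at 718 and 721. H2afz stood at 423 and 391 FPKM and H2afx, which marks DNA breaks once phosphorylated, at 122 and 114. H2afv, which also encodes an H2A.Z protein, showed the largest difference of the list, at 54.6 and 29.8 FPKM (0.506 to 0.589). Of the 11 measured variant genes, 6 were higher and 5 lower, with a median log2 ratio of 0.01. The shares among all measured genes were 51.2% and 48.8%.

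Of 21 measured genes that make and process histone mRNA 10 were higher and 11 lower, with a median log2 ratio of −0.02. At 1.2-fold 0 were higher and 0 lower, where the background was 4.77% and 3.46%. The interval lay above 1 in 0 and below 1 in 2, Usp1, a deubiquitinase (0.870 to 0.965), and Srrt, a factor of RNA processing (0.906 to 0.997). Slbp, which binds the stem-loop, stood at 50.8 FPKM in control and 49.3 in mutant tongue. Npat, the coactivator of histone transcription, stood at 11.1 and 11.4, and Casp8ap2, a protein of the histone locus body, at 12.6 and 12.2. Histone chaperones, which carry histones to DNA, were lower in 15 and higher in 6 of 21 genes, with a median log2 ratio of −0.03. Of all measured genes 48.8% were lower and 51.2% higher. The interval lay below 1 in 8 chaperone genes and above 1 in 0, against 10.2% and 10.7% of all measured genes. Asf1b, the chaperone linked to proliferation, stood at 15.9 and 11.2 FPKM (ratio 0.708, interval 0.619 to 0.808). Chaf1b, a subunit of the replication-coupled assembly factor, stood at 24.9 and 20.8, and Nasp, a store of H3 and H4, at 135 and 124.

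Genes of DNA replication and of mitosis were mostly a little lower in the mutant library. Of 30 S phase genes 27 were lower and 3 higher. Their median log2 ratio was −0.09, compared with 48.8% lower and a median of 0.0035 over all measured genes. The interval lay below 1 in 15 of the 30, and in 14 of the 18 mitosis genes, of which 16 were lower, compared with 10.2% of all measured genes. The count of intervals cannot be set beside that of the histone genes, which had far fewer reads. Pcna, the sliding clamp of DNA polymerase, stood at 146 FPKM in control and 132 in mutant tongue. Cdc6, which loads the replicative helicase, stood at 10.4 and 8.05, and Ccne2, a cyclin of S phase entry, at 16.9 and 14.1. The ratio of reads of the 30 S phase genes together was 0.936 (0.927 to 0.946). That of the clustered histone genes was 1.08 (1.01 to 1.15). Without the Hist3 locus, set apart after its values were seen, the histone ratio was 0.990 (0.915 to 1.07). The differences between these ratios were not tested. Of 7 genes of cell cycle exit, 5 were higher and 2 lower, against 51.2% and 48.8% of all measured genes. Their ratio of reads together was 0.964 (0.951 to 0.977). The most abundant, Cdkn1c, stood at 982 and 936 FPKM (interval 0.94 to 0.967). The interval lay above 1 in 1, Cdkn1a (1.01 to 1.23), and below 1 in 1, Cdkn1c, against 10.7% and 10.2% of all measured genes.

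Markers of other cells also differed between the libraries. The 4 epithelium markers Krt5, Krt14, Krt15 and Shh summed to 82.6 FPKM in control and 68.1 in mutant tongue (4 of 4 lower). The 4 measured red cell markers summed to 1310 and 1068 FPKM (4 of 4 lower). Among all measured genes 48.8% were lower. The 4 muscle markers were 1 higher and 3 lower, and those of mesenchyme, Osr1 among them, 2 higher and 2 lower. The part of these cells in the histone values was not tested. Of the 5 germ cell markers 0 were measured, with Pou5f1 and Tnp1 listed at 0 in both libraries, Ddx4 at 0.275 and 0.371 FPKM, Dazl at 0.020 and 0.053, and Prm1 at 0.12 and 0. Of the histone genes named for testis, Hist1h2aa was near 0, at 0.0011 and 0.00043 FPKM. Hist1h2ba stood at 0.593 and 0.352 FPKM from 4 and 3 estimated reads, above its floors of 0.414 and 0.338. Of its 50-base coding stretches, 38.2% occur in another member.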

How the data were processed

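Tongue RNA was amplified to cDNA with the NuGEN Ovation RNA-Seq v2 kit, per the labels' protocols. Bowtie 0.12.7, TopHat 1.4.1 and mm9 are listed in the submitters' processing notes. Deposited FPKM values, 1 to a RefSeq transcript, stand in a Cufflinks layout per the file headers. The deposited coverage column, a signal not scaled for depth, is also per the file headers. The Cufflinks version, read length, strand and treatment of multiply matching reads were not given in the sources used here. Rows of 1 symbol were summed (28107 rows, 22072 symbols, 75 rows of histone genes). Coverage per FPKM (0.894 and 1.09) gave the relative depth, 1.22. Coverage times length stepped by 47.3 bases, taken as 1 read, which gave estimated reads and exact conditional (Clopper-Pearson) 95% intervals. The intervals were tested on simulated independent counts that hold counting error only. Effects of amplification and of reads shared between copies were not simulated. Log2 ratios used a pseudocount of 1, which understates differences of low genes. With 1 library a group, intervals compare libraries, not genotypes. Of the 67 members 10 overlap another gene model, and 0 of the 38 measured ones do. Members and lists were chosen with earlier results of these data known. Any member of at least 1 FPKM could be named, with full values for those of at least 5 FPKM, up to 6 of each type. Of each related list up to 6 genes of at least 5 FPKM were to be named, by level or log2 ratio. Members with fewer FPKM that are given in full, and the germ cell markers, were chosen after their values were seen. Coordinates of genes are on mm9, counted from 1. Transcript and promoter sequences come from GENCODE M21 and RefSeq (GRCm38.p6) and were matched by accession or symbol. Python 3.11.15, pandas 2.3.3, scipy 1.17.1, numpy 2.4.6 and matplotlib 3.10.9 were used.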

Additional observations from a re-analysis of the deposited data

How the results depend on the processing

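Of 160 values under the alternatives, 148 moved by less than the counting interval reaches to either side (counts by at most 1.5 times). For the related lists this reach had a set minimum. The other 12 moved by more. Besides counts of members, 6 values changed side. The median log2 ratio of the members went from 0.05 to -0.00099 without a filter on the level. The ratio of all types went from 1.04 to 0.986 without the 3 Hist3 genes, and H1 from 0.987 to 1.01 without members overlapping another model and to 1.04 by estimated reads. The other 2 are the H2B ratios below. None of these values had a test. Counts of members moved with the filter: without a filter on the level 29 of 63 were higher and 32 lower. At 5 FPKM or more, 6 of 7 were higher and 1 lower, with a median log2 ratio of 0.15. Without members under 400 nt, 14 of 19 were higher and 5 lower, with a median of 0.18. With members of the same protein summed, 10 of 17 values were higher and 7 lower. The ratio of the H1 sum was 0.454 without Hist1h1c, and that of H2B, reported as 1.03, was 0.924 without Hist3h2ba and 0.910 without the 3 Hist3 genes, an alternative chosen after seeing the data. The H4 ratio went from 0.882 to 0.70 without Hist1h4i, which counted among the 148. The cause of these shifts was not tested. Setting the median of all measured genes to 0 moved it by 0.0035. No paired analysis was possible because each genotype had 1 library, and for the same reason no replicate could be left out. The interval included 1 in 36 of the 38 measured members, so differences of these single members were not detectable at this depth.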

Other observations

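Some values of single histone rows show how the deposited tables divided reads between near-identical models. Hist1h2be has 2 transcript rows that trade places: one stood at 0.0067 FPKM in control and 0.211 in mutant tongue, the other at 0.189 and 0.00022, while their sum stood at 0.196 and 0.211. The 2 rows of Hist1h2bq, at separate places on chromosome 13, had the same value, 0.445 FPKM in control and 0.356 in mutant tongue. Hist1h2ao, Hist1h2ap, Hist2h2aa1 and Hist2h2aa2 were listed at 0 in both libraries. All 4 have near-identical copies among the other members. Hist1h2ao also overlaps Hist1h2ap, and Hist2h2aa1 overlaps Hist2h2aa2. Why these genes were listed at 0 was not tested.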
